A study of Mus with 4 samples.

Results

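The lysyl oxidases, Lox, Loxl1, Loxl2, Loxl3 and Loxl4, were followed in a murine podocyte cell line in which OASIS, a membrane-bound transcription factor encoded by Creb3l1, was overexpressed. The members were the rows of the deposited array table that carry these gene symbols, which gave 5 genes read by 9 probes, out of 26893 named genes and 56605 probes. The immortalized podocytes had been differentiated for 10 to 14 days at the nonpermissive temperature, without interferon-γ. They were then exposed for 24 h to lentivirus at a multiplicity of infection of 200 to 500, in the presence of polybrene and serum. Of the 4 samples, 2 received a vector for Venus, a fluorescent protein used as the control, and 2 received a vector for the active form of OASIS. Total RNA was taken 48 h after the vectors were added and was hybridised to 1-colour Agilent arrays. All samples came from the same cell line, and nothing in the sources used here says that the replicates were separate cultures, so that the p-values measure only the spread between these samples, which may be technical.

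Lysyl oxidases are secreted, copper-dependent amine oxidases that convert lysine and hydroxylysine residues of collagen and elastin into reactive aldehydes. The aldehydes condense into the covalent cross-links that make collagen fibrils and elastic fibres stiff and insoluble, and hydrogen peroxide is released in the reaction. The catalytic domain, with its copper site and a quinone cofactor made from a lysine and a tyrosine of the enzyme itself, is shared by all members. Lox and Loxl1 have a propeptide that is removed outside the cell, whereas Loxl2, Loxl3 and Loxl4 carry scavenger receptor cysteine-rich domains. In the glomerulus, cross-linked collagen lies in the basement membrane on which the podocytes sit, and fibrillar collagen accumulates in sclerosis.

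The annotation in the deposited table reflected this division. The Gene Ontology term for protein-lysine 6-oxidase activity was attached to 5 genes of the array, which were the 5 members. Copper ion binding was given to all members and to 57 genes of the array in all. Scavenger receptor activity was given to Loxl2, Loxl3 and Loxl4 (44 genes in all), and collagen fibril organization to Lox, Loxl2, Loxl3 and Loxl4 (49 genes in all). The genes lie on separate chromosomes, Lox on chromosome 18 (band qD1), Loxl1 on chromosome 9 (qB), Loxl2 on chromosome 14 (qD2), Loxl3 on chromosome 6 (qC3) and Loxl4 on chromosome 19 (qC3). In the order above, their Entrez gene identifiers were 16948, 16949, 94352, 16950 and 67573. Positions of the probes on the transcripts were not analysed here.

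OASIS-overexpressing podocytes had much more Lox mRNA and more Loxl2 mRNA than Venus podocytes, whereas Loxl1 and Loxl3 stayed within the spread between arrays and the Loxl4 probes were lower without passing the threshold. The Lox signal was 15.7-fold and 11.3-fold higher by its 2 probes, and that of Loxl2 was 3.24-fold and 1.79-fold higher. Values are log2 intensities minus the log2 of the 75th percentile of the array. A probe was called at the threshold of the study's methods, a fold over 2.0 or under 0.5 with an adjusted p under 0.1, here from limma with Benjamini-Hochberg adjustment over the 31598 probes for which both Venus arrays, both OASIS arrays or all of them were well above background. All 9 lysyl oxidase probes were tested, and each was well above background on all 4 arrays. The threshold was passed by 3 of the 9 probes, all higher with OASIS and 0 lower, against 8.36% of all probes tested in either direction, 5.89% higher and 2.47% lower. These 3 probes belonged to 2 of the 5 genes. At an unadjusted p under 0.05, 2 of the 9 probes were lower, against 22.4% of all probes, and the methods' t-test called 0 lower. By the adjusted p alone, 4 probes were higher and 2 lower, against 17.0% and 19.7% of all probes. In 4 of the 9 probes both OASIS arrays lay above both Venus arrays, and in 3 both lay below, against 28.6% and 39.4% of all probes. With 2 arrays a group, the smallest two-sided p of an exact permutation test is 0.333, and the adjusted p-values owe their size to the pooling of variances across probes in limma.

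**Figure D1:**
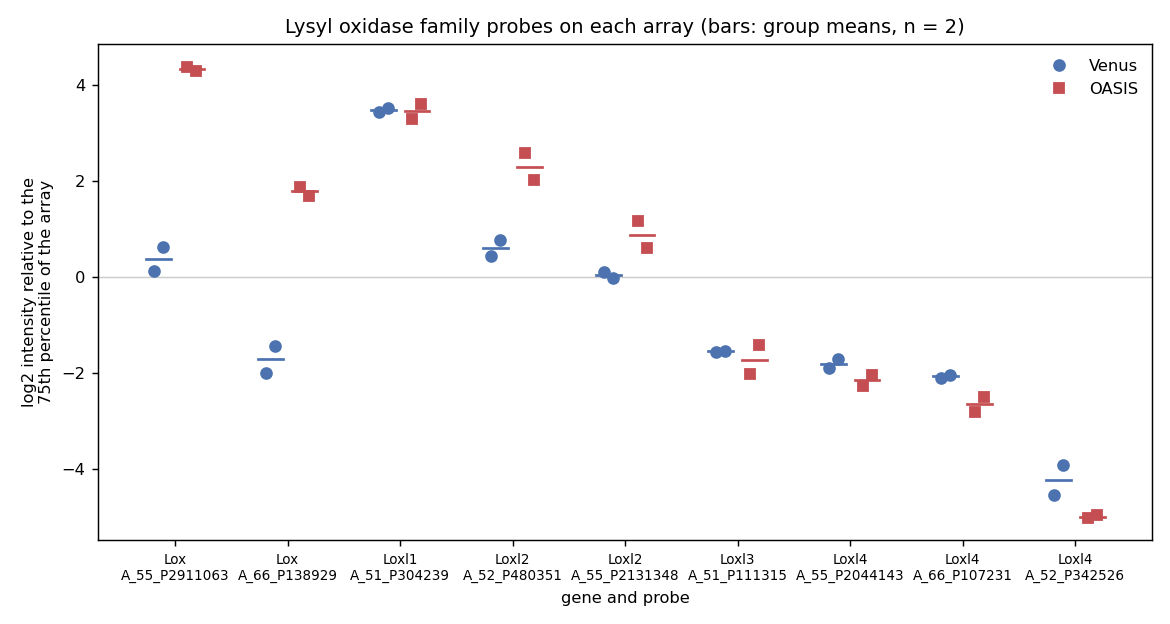
Log2 intensity over the array's 75th percentile (vertical axis) for each lysyl oxidase probe (horizontal axis), with circles for the 2 Venus arrays, squares for the 2 OASIS arrays and bars for the group means. The OASIS arrays stand clear of the Venus arrays for Lox and Loxl2, overlap with them for Loxl1 and Loxl3, and lie just below them for Loxl4; heights of different probes cannot be compared with each other.

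Lox, the founding member and the main cross-linking enzyme of type I collagen and elastin, gave the largest change of the family. The brighter Lox probe, A_55_P2911063, read 0.11 and 0.62 with Venus and 4.39 and 4.29 with OASIS. In background-corrected intensities, these spots measured 1002 and 1519 with Venus and 20058 and 18998 with OASIS. The lower OASIS array was 3.67 above the higher Venus array, whereas the Venus arrays differed by 0.51 and the OASIS arrays by 0.097. The means were 0.37 ± 0.36 with Venus and 4.34 ± 0.068 with OASIS (SD, n = 2 each). The log2 fold change was 3.98 (standard error [SE] 0.20, 95% interval 3.46 to 4.49, limma adjusted p = 0.00262), which ranked 126 among the rises of the 31598 probes. Lox was also among the genes that the study picked from these arrays, so that its rise here is not independent evidence.

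The other Lox probe, A_66_P138929, is annotated to the same transcript. It read -2.00 and -1.43 with Venus and 1.89 and 1.68 with OASIS, so that the groups were again far apart. Its log2 fold change was 3.50 (SE 0.22, 95% interval 2.92 to 4.08, limma adjusted p = 0.00375), at rank 182 of the rises. The changes of the 2 probes differed by 0.48, and their intervals overlapped. The local background around a spot was marked as uneven on all 4 arrays for this probe and on 1 array for the brighter one. The background itself was small beside the signal, with the brighter spot at 26.5 to 543 times and the other at 6.19 to 78.8 times its local background. With the marked spots left out, a setting chosen after seeing the data, the brighter probe still passed the threshold and the other had no value left.

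Loxl2 cross-links collagen, including the type IV collagen of basement membranes, and it lacks the propeptide of Lox. Its brighter probe, A_52_P480351, read 0.44 and 0.77 with Venus and 2.58 and 2.02 with OASIS. Both OASIS values exceeded both Venus values, with a gap of 1.25 between the nearest arrays, and the OASIS arrays lay 0.56 apart. The log2 fold change was 1.70 (SE 0.23, 95% interval 1.08 to 2.31, limma adjusted p = 0.0141), at rank 764 of the rises. The other Loxl2 probe, A_55_P2131348, read 0.11 and -0.013 with Venus and 1.16 and 0.61 with OASIS. Its log2 fold change of 0.84 (SE 0.21, 95% interval 0.28 to 1.39, limma adjusted p = 0.0517) met the limit on the adjusted p but not that on the fold. Both probes were higher on OASIS array 1 than on OASIS array 2. Without OASIS replicate 2 the dimmer probe passed the threshold as well, at 1.12, and without OASIS replicate 1 it stood at 0.56. The changes of the 2 probes differed by 0.86 on the log2 scale, and their intervals overlapped. By the methods' t-test with Benjamini-Hochberg adjustment, the adjusted p was 0.0946 for the brighter Lox probe, 0.102 for the other and 0.146 for the brighter Loxl2 probe, so that the brighter Lox probe alone passed.

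Loxl1, which is tied to elastic fibre upkeep, was well above background on every array and did not pass the threshold. Its probe, A_51_P304239, read 3.44 and 3.52 with Venus and 3.30 and 3.62 with OASIS, and the OASIS arrays lay on either side of both Venus arrays. The log2 fold change was -0.020 (SE 0.14, limma adjusted p = 0.932), and its 95% interval of -0.40 to 0.36 leaves out a change of the threshold size in either direction. Loxl3, which acts on collagen and fibronectin matrices in development, read -1.56 and -1.55 with Venus and -2.04 and -1.42 with OASIS by probe A_51_P111315. The OASIS arrays again lay on either side of the Venus arrays and differed by 0.61 from each other. Its log2 fold change was -0.18 (SE 0.22, 95% interval -0.77 to 0.41, limma adjusted p = 0.6), with an uneven local background on 3 of the 4 arrays. Without OASIS replicate 1, the log2 fold change of Loxl1 was 0.14 and that of Loxl3 was 0.13, so that neither direction held.

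Loxl4 was read by 3 probes, each with both OASIS arrays below both Venus arrays, and none passed the threshold. A_55_P2044143 and A_66_P107231 are annotated to transcript variant 1, and A_52_P342526 to variant 2. The brightest, A_55_P2044143, read -1.90 and -1.72 with Venus and -2.27 and -2.04 with OASIS, a log2 fold change of -0.35 (SE 0.14, limma adjusted p = 0.135). A_66_P107231 read -2.10 and -2.04 with Venus and -2.82 and -2.50 with OASIS, a log2 fold change of -0.59 (SE 0.14, 95% interval -0.97 to -0.21, limma adjusted p = 0.049). A_52_P342526 read -4.56 and -3.94 with Venus and -5.03 and -4.97 with OASIS. Its log2 fold change was -0.75 (SE 0.23, 95% interval -1.35 to -0.15, limma adjusted p = 0.0774). The latter probes thus met the limit on the adjusted p but not that on the fold. The intervals of the 3 probes overlapped in every pair, and a difference between the transcript variants was not tested. The variant 2 spot was only 1.99 to 2.71 times its local background, and its change shrank to -0.24 with the normexp background correction. Without Venus replicate 1 it reached -1.07 (limma adjusted p = 0.0521), which passes the threshold. For scale, the median log2 fold change of all probes tested was -0.069.

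**Figure D2:**
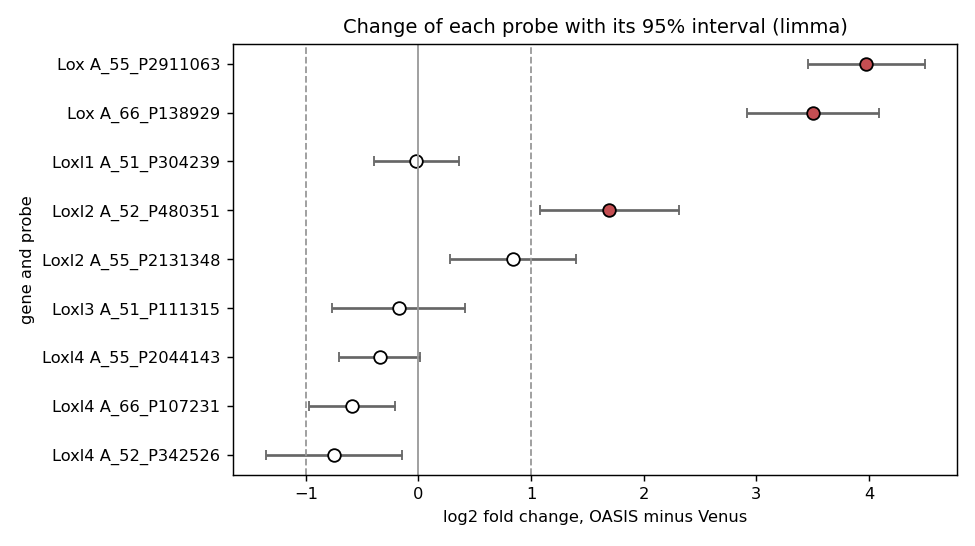
Log2 fold change, OASIS minus Venus (horizontal axis), for each lysyl oxidase probe (vertical axis), with 95% intervals from limma; filled points passed the threshold and dashed lines mark a 2-fold change in either direction. The 2 Lox probes at 3.98 and 3.50 and a Loxl2 probe at 1.70 are filled, and the intervals of the 3 Loxl4 probes lie mostly below 0.

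**Figure D3:**
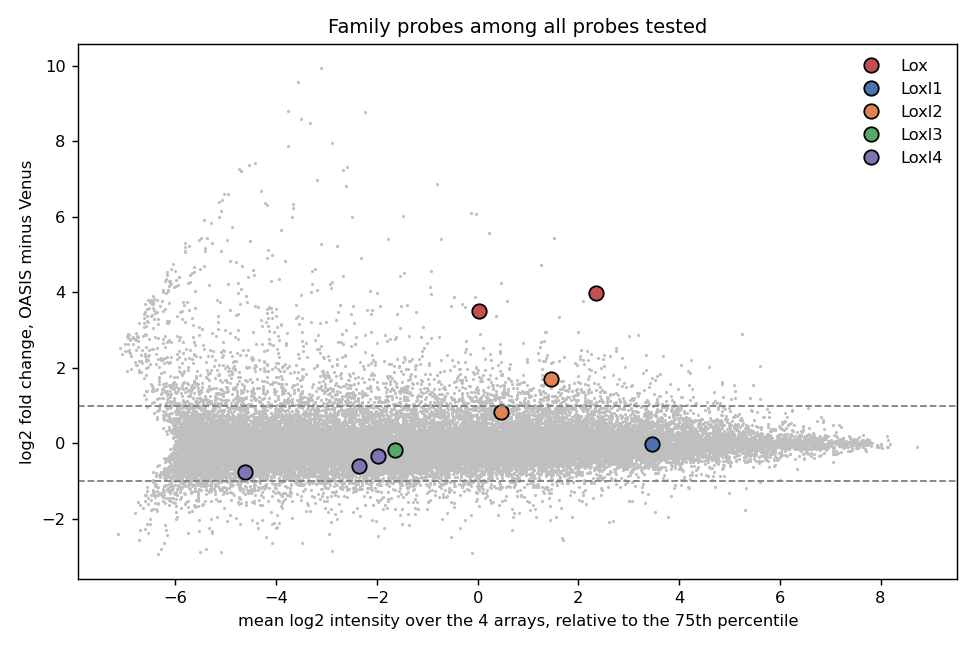
Mean log2 intensity over the 4 arrays, relative to the 75th percentile (horizontal axis), against log2 fold change, OASIS minus Venus (vertical axis), for the 31598 probes tested (grey) and the lysyl oxidase probes (coloured by gene); dashed lines mark a 2-fold change. Both Lox probes lie in the sparse upper edge of the cloud at their intensity, and Loxl1, Loxl3 and Loxl4 lie within its body.

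Partner genes were taken from 11 lists with 99 genes, of which 87 could be tested, each by its brightest probe. Not all of them work with lysyl oxidases. The lists also hold transglutaminases, other copper amine oxidases, genes for removal of hydrogen peroxide, and hypoxia-inducible and TGF-beta-inducible genes. The last 2 of these lists gave 3 and 2 of the genes that were higher. The threshold was passed by 16 genes that were higher and by 1 that was lower, against 6.21% and 1.85% of the 16318 genes tested. The lists were chosen with earlier results of these arrays known, and no list was tested as a set. Leaving out 1 array moved the number past the threshold from 17 to between 13 and 18, and 10 passed by the methods' t-test. An unadjusted p under 0.05, given below for lists without a call, was found for 40.9% of all genes tested. With a call required on all 4 arrays, 14 genes were higher. Where normexp background correction moved the fold of a gene named below by more than 1.5 times, its value is given beside it. The median change of all genes tested was -0.056.

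The substrates that passed the threshold were some of the fibrillar collagens. Col2a1 at -0.25, Col11a1 at -0.021 and Col11a2 at 0.59 did not pass, and Col3a1 and Col5a3 did not meet the filter on background. Of 8 tested genes for fibrillar collagens and elastin, 4 rose, of which 2 passed by the methods' t-test and 3 with normexp, with a list median of 0.85. Col1a1, a chain of type I collagen, read -3.26 and -2.87 with Venus and 3.01 and 3.03 with OASIS, a rise of 6.08 (SE 0.16, limma adjusted p = 0.00141), or 5.35 with normexp. Col1a2, the partner chain of type I collagen, rose by 2.71 (limma adjusted p = 0.0019), or 1.41 with normexp. Both chains were among the genes the study picked from these arrays. Col5a1, a chain of the type V collagen that nucleates fibrils, rose by 1.10, and its other chain gene Col5a2 by 1.24. A further Col5a2 probe stood at -0.38. Col5a2 missed the threshold with normexp (0.88), without Venus replicate 1 (0.96), without Venus replicate 2 (limma adjusted p = 0.115) and without OASIS replicate 2 (0.77), and Col5a1 missed it without Venus replicate 1 (0.95). Elastin, at -0.21 (limma adjusted p = 0.502), did not pass, and it was well above background on only 1 of the OASIS arrays. None of the 6 type IV collagen chains of the basement membrane passed the threshold by limma or by the methods' t-test, and 1 had an unadjusted p under 0.05, with a list median of -0.057. By brightest probe, the largest change among them was that of Col4a3 at -0.64 (limma adjusted p = 0.0617). Col4a5 was at 0.061 by its brightest probe, but its other probe stood at -0.82 without passing the threshold.

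Lysine hydroxylation and glycosylation influence which cross-links form. Of the 5 genes tested, 3 rose, of which 2 passed by the methods' t-test and 2 with normexp, with a list median of 1.02. Fkbp10, an endoplasmic reticulum isomerase that acts with the telopeptide lysyl hydroxylase, read 4.63 and 4.78 with Venus and 6.32 and 6.16 with OASIS, a rise of 1.53 (limma adjusted p = 0.00558). Colgalt1, a collagen galactosyltransferase, rose by 1.06, and Plod1, a lysyl hydroxylase, by 1.02. Plod2 at 0.11 and Plod3 at -0.064, the other lysyl hydroxylases, did not pass. Colgalt1 and Plod1 lay just over the 2-fold limit and fell short of it without OASIS replicate 1, at 0.93 and 0.97, as did Plod1 without Venus replicate 1 and with normexp, both at 0.97.

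Of the 8 genes tested for removal of the Lox propeptide and for cleavage of procollagen, 2 rose, and both passed by the methods' t-test. Bmp1, the proteinase that cuts the propeptide from Lox, did not pass, at 0.15 (limma adjusted p = 0.33). Pcolce2, an enhancer of procollagen C-proteinase, read -3.80 and -3.99 with Venus and -1.58 and -1.77 with OASIS, a rise of 2.22 (limma adjusted p = 0.0034), or 1.48 with normexp. Adamts14, a procollagen N-proteinase, rose by 1.12. The list median was 0.14. Of 13 genes tested for elastic fibre assembly, Emilin1, a glycoprotein at the surface of elastic fibres, was called higher, and the methods' t-test called 0. On the Venus arrays its probe was not well above background, which left only a nominal bound, 4.78-fold higher with OASIS. For such a bound, the mean of the OASIS arrays is set against, for each Venus array, the lowest value well above background or the value of the probe itself, whichever is higher. The bound rests on the main background correction and is not a minimum under other corrections. Emilin1 was tested only because of the OASIS arrays, and it drops out when a call on all 4 arrays is required. Its fitted change of 4.18 (limma adjusted p = 0.00674) shrank to 1.003 with normexp. The list median was -0.14, with Emilin1 at its bound too. The brightest probe of Fbn1, the fibrillin of microfibrils, stood at 0.28, but another of its probes passed the threshold at 2.47 (limma adjusted p = 0.00913), and by the mean of its probes Fbn1 passed at 1.04. Fbn1 was named after its values were seen. Fibulin-4 (Efemp2), which brings Lox to elastin, was at -0.025 and fibulin-5 (Fbln5) at -0.14.

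Copper, the metal of the active site, is taken up by Slc31a1 and handed to secreted enzymes by Atp7a. Slc31a1 read -0.16 and -0.11 with Venus and 2.06 and 2.14 with OASIS, a rise of 2.23 (SE 0.10, limma adjusted p = 0.00215). Atp7a was at -0.24 (limma adjusted p = 0.31). The metallothionein Mt2, a metal-binding protein, fell by 1.31 on the log2 scale (limma adjusted p = 0.00683), from 5.74 and 5.55 to 4.38 and 4.30. These were the only genes of 9 past the threshold, 1 of them by the methods' t-test, and the list median was 0.020. Mt1, named here after its values were seen, was at -0.97 (limma adjusted p = 0.0108) and passed the limit on the fold without Venus replicate 2, at -1.07.

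Neither of the 2 tested transglutaminases, which cross-link matrix proteins by another chemistry, passed the threshold, and the larger change was that of Tgm2 at 0.075. Neither did the 2 tested amine oxidases of the other copper-dependent family, of which Aoc3 was at -0.071. By limma, 0 of these genes had an unadjusted p under 0.05, and the methods' t-test called 0. The 10 tested genes for removal of hydrogen peroxide gave 0 calls by limma and 0 by the methods' t-test, 5 had an unadjusted p under 0.05, and the list median was 0.19. By brightest probe, the peroxiredoxin Prdx6 had the largest change among them at 0.59 (limma adjusted p = 0.0252). Prdx1, named after its values were seen, was at 0.29 by its brightest probe, but another of its probes passed the threshold at 1.46 (limma adjusted p = 0.00461).

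Lox and Loxl2 are known targets of hypoxia-inducible factor and of TGF-beta signalling. Of 15 tested hypoxia-inducible genes, 3 rose, of which 2 passed by the methods' t-test and 2 with normexp, and the list median was -0.22. P4ha2 rose by 1.71, Pdk1 by 1.32 and P4ha1 by 1.003. P4ha1 and P4ha2 encode the catalytic subunits of collagen prolyl hydroxylase, and Pdk1 encodes a pyruvate dehydrogenase kinase. P4ha1 was at the limit and missed it without Venus replicate 1 (0.99) and without OASIS replicate 1 (0.86), and it stood at 0.98 with scaling to the median and at 0.93 with normexp. A further Pdk1 probe stood at -0.21. Of the 15 changes, 7 were positive. Other genes of the list met the limit on the adjusted p but not that on the fold, and were named after their values were seen. Lower were Ankrd37 at -0.80 (limma adjusted p = 0.0135), Slc2a1 at -0.44 (0.0872) and Ndrg1 at -0.39 (0.0599). Egln1 was higher, at 0.57 (0.0287). Vegfa, named here after its values were seen, was at -0.96 (limma adjusted p = 0.0135) and passed as lower with quantile normalization, at -1.01, and without Venus replicate 2, at -1.09. Of 10 tested TGF-beta-inducible genes, 2 were called higher, 1 of them by the methods' t-test, and the list median was -0.12, with Tgfbi at its bound too. Tgfbi, a matrix protein that binds collagen, had a nominal bound of 8.19-fold higher with OASIS, set and limited as for Emilin1. It too was tested only because of the OASIS arrays, so that with a call required on all 4 arrays 1 gene of the list passed. The fitted change of Tgfbi, 4.70 (limma adjusted p = 0.0053), shrank to 1.43 with normexp. Skil, a repressor of Smad signalling, rose by 1.24, although another of its probes stood at -0.41. Ccn2 at -0.19, a classical response to TGF-beta, did not pass.

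**Figure D4:**
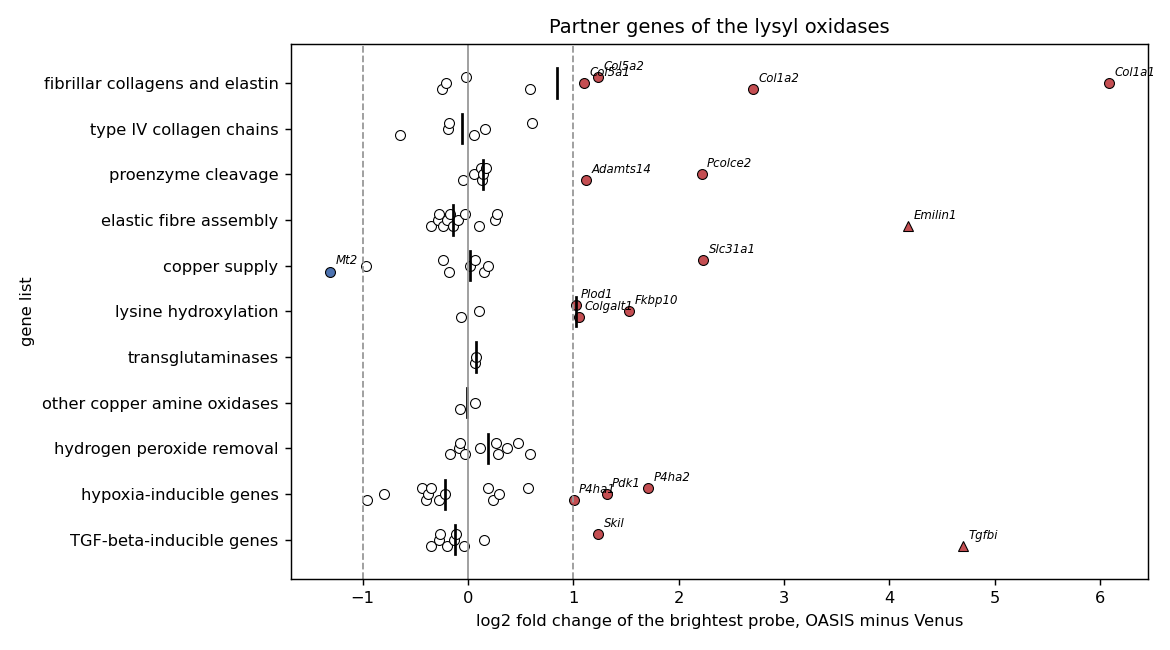
Log2 fold change of the brightest probe, OASIS minus Venus (horizontal axis), for each tested gene of the 11 partner lists (vertical axis); red points rose and the blue point fell past the threshold, open points did not pass, triangles, drawn at the fitted change, lacked a signal well above background with Venus, and black bars are list medians. Most red points belong to fibrillar collagens, lysine hydroxylation and the hypoxia list, and Mt2 is the blue point.

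The genes next to each lysyl oxidase on the chromosome, by gene order in RefSeq on the GRCm38.p6 assembly, did not pass the threshold. Of the 10 nearest protein-coding neighbours, 8 were tested, with log2 fold changes from -0.76 to 0.64. Limma called 0 of them, 3 having an unadjusted p under 0.05, and the methods' t-test called 0. Srfbp1, the neighbour of Lox that could be tested, was at -0.19 (limma adjusted p = 0.253), beside the 3.98 of Lox. Entpd4b and R3hcc1, on either side of Loxl2, were at 0.64 and 0.23. Entpd4b has a close copy in the genome, and the array signal of the copies may not be separable. Stoml1, beside Loxl1, was at -0.76 (limma adjusted p = 0.0203). Dok1 at -0.11 and Htra2 at 0.22 flank Loxl3, and R3hcc1l at -0.18 and Pyroxd2 at 0.56 flank Loxl4.

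The genes most like each member were those with the smallest Euclidean distance over the 4 arrays, with every array taken relative to the mean of the Venus arrays and each gene read by its brightest tested probe. For Lox they included Sema3b, a secreted semaphorin, at a distance of 0.33, and Ndrg4 at 0.45. Their log2 fold changes were 3.95 and 3.76. For Loxl2 they were Pkp1, a desmosomal plakophilin, at 0.11, Bdkrb2, a bradykinin receptor, at 0.12, and C730027H18Rik at 0.15. For Loxl1 they were 1700001L05Rik, 1700101I19Rik and Tead1, for Loxl3 Adora1, Eln and Pkn3, and for Loxl4 Heca, Vps11 and Efnb3. The distances of these 9 genes were between 0.022 and 0.069, among the many genes with little change.

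Cell type markers were read beside these results. The podocyte label was borne out in part, since 7 of 10 podocyte markers were tested, among them Synpo and Actn4, while others, including the slit diaphragm gene Nphs1 and Ptpro, did not meet the filter on background. Wt1 rose by 4.62 by its brighter probe (2.68 with normexp), whereas its other probe gave -0.16, and Cd2ap rose by 1.09, whereas another of its probes gave -0.37. Kirrel, at -0.26 by its brightest probe, had another probe past the threshold at -1.11. The methods' t-test called 1 gene of the list. The summed podocyte marker signal, in log2 relative to the 75th percentile, was 5.91 and 5.97 with Venus and 5.85 and 5.98 with OASIS. Such a sum adds the intensities of different probes and mainly follows the brightest, here Actn4 at 5.08 and 5.10 with Venus. It therefore hardly registers dim markers such as Wt1 and does not show whether the cell type was stable. The sums below were made in the same way. Of the fibroblast and mesangial markers, 5 of 8 were tested and 2 were called higher, both also by the methods' t-test. Pdgfra was not well above background on the Venus arrays, with a nominal bound of 7.96-fold higher with OASIS, and Col6a3 rose by 1.91. Pdgfra was tested only because of the OASIS arrays and drops out when a call on all 4 arrays is required, and with normexp it was at 1.45 while Col6a3 fell short of the threshold at 0.86. Pdgfrb at -0.097 and Dcn at -0.58 did not pass, and Lum, Itga8 and Thy1 did not meet the filter. Their summed signal was 1.86 and 2.17 with Venus and 1.68 and 2.05 with OASIS. Of 6 tubular markers, 2 were tested and Lrp2 rose by 1.62 by its brightest probe (0 calls by the methods' t-test). Of the 5 tested Lrp2 probes, only 2 passed the threshold, and the lowest stood at -0.16. The summed tubular signal was 4.41 and 4.87 with Venus and 4.45 and 5.23 with OASIS. The 1 endothelial marker of 6 that was tested, Pecam1, was at 0.26, with sums of -5.26 and -5.44 with Venus and -5.07 and -5.10 with OASIS. None of the 3 tested leukocyte markers of 5 passed, and 0 had an unadjusted p under 0.05 by limma or a call by the methods' t-test, with sums of 1.59 and 1.49 with Venus and 1.42 and 1.58 with OASIS. The part of Pdgfra, Col6a3 and Lrp2 in the changes of Lox and Loxl2 was not tested. In RNA from whole cultures, fewer cells of a type and less RNA per cell cannot be told apart.

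Slide and scan were the same for all 4 arrays, with 33938 to 34418 of 59305 spots well above background and none saturated. The local background was marked as uneven at 4.82% and 6.70% of spots on the Venus arrays and at 9.72% and 10.9% on the OASIS arrays. The single Creb3l1 probe gave a log2 fold change of -0.17 (limma adjusted p = 0.298). Whether it can read the vector's insert was not analysed here, so that it does not check the labels.

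**Figure D5:**
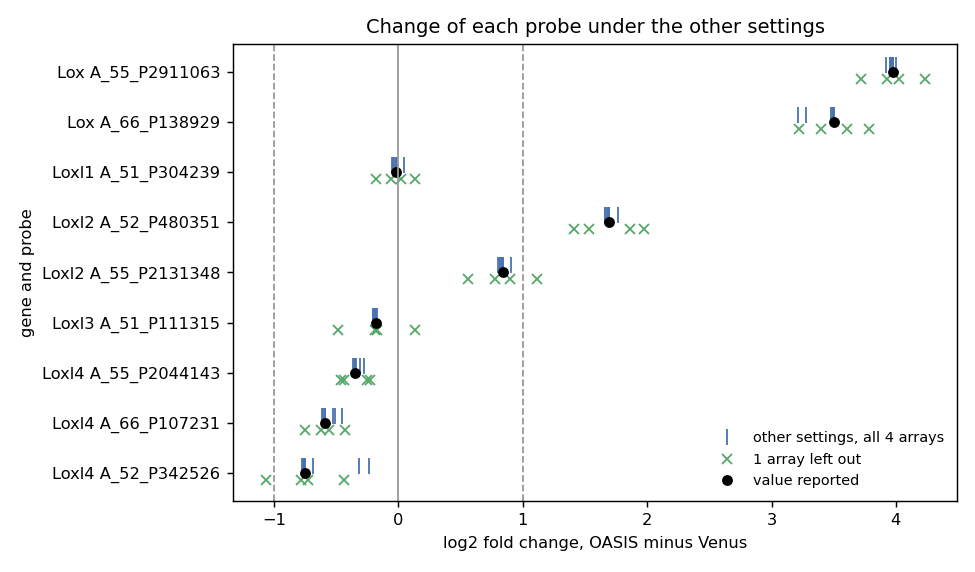
Log2 fold change, OASIS minus Venus (horizontal axis), for each lysyl oxidase probe (vertical axis) as reported (black points), under the other processing settings with all 4 arrays (blue ticks) and with 1 array left out (green crosses); dashed lines mark a 2-fold change. The Lox probes stay above 3 under every setting shown, and the crosses of Loxl1 and Loxl3 fall on both sides of 0.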

How the data were processed

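RNA of cultured murine podocytes was profiled on 4 arrays, 2 with Venus and 2 with OASIS, grouped by the sample titles. For each spot, the authors deposited the intensity corrected for background by Agilent Feature Extraction 12.1.0.3 (array design on build mm9), the median intensities of the spot and its local background, and marks for well above background, saturated, outlier and uneven background spots. They also deposited a table of the same intensity times a single factor per array, 0.663 to 0.698, with symbols, bands and Gene Ontology terms. The members and gene lists were chosen with earlier results of these data known.

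Control and outlier spots were left out, the 75th percentile of the array was subtracted from each log2 intensity, and spots of a probe were averaged. The groups were fitted with lmFit and eBayes of limma 3.58.1 (R 4.3.3), and the fit was tested on simulated data. A gene was read by its brightest tested probe, so that a large change can decide which probe that is. The rule for named genes takes every member probe, up to 4 genes past the threshold per list or else the gene with the largest change, the 3 genes nearest in pattern and the adjacent genes; other genes named, such as Bmp1 and Atp7a, were chosen after their values were seen. Values of some genes under these rules are not reported here. The transcript to which each of the 9 member probes is annotated was listed in RefSeq for its gene. Probe sequences were not compared with the transcripts. Coordinates and sequences are not given, since a genome of that build was not used here. Normexp used an offset of 50 and the median spot intensity. The number of arrays limits the precision.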

Additional observations from a re-analysis of the deposited data

How the results depend on the processing

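Under the 17 and 16 other settings that gave them a value, the Lox probes stayed higher, at 3.92 to 3.998 and 3.21 to 3.50 with all arrays, and at 3.72 to 4.23 and 3.22 to 3.78 with 1 array left out. With the methods' t-test, 1 lysyl oxidase probe passed the threshold, the brighter Lox probe, which was higher. The second Lox probe (3.50, adjusted p = 0.102) and the brighter Loxl2 probe (1.70, adjusted p = 0.146) then missed it. So did Mt2, and 10 partner genes passed, 10 higher and 0 lower, of 726 probes in all against 2641. Normexp gave 1222 probes and no background correction, a setting chosen after seeing the data, 1427. The lower partner genes numbered 2 with quantile normalization (Mt2 and Vegfa), 2 without the filter on dim probes (Mt2 and Tgm1) and 0 with spots of uneven local background left out, also chosen after seeing the data, where Loxl1 turned to 0.046 and Aoc3 to 0.20. Aoc3 also turned to 0.033 by the mean of its probes and to 0.14 by the probe with the smallest p. The cause was not tested.

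With 1 array left out, 3 to 4 lysyl oxidase probes passed, 3 to 4 higher and 0 to 1 lower. The probes ranged from 1.42 to 1.98 and from 0.56 to 1.12 for Loxl2, from -0.18 to 0.14 for Loxl1, from -0.48 to 0.13 for Loxl3, and from -0.46 to -0.23, from -0.75 to -0.43 and from -1.07 to -0.44 for Loxl4. Loxl1 was at 0.017 without Venus replicate 2. Pyroxd2 ranged from -0.38 without OASIS replicate 2 to 0.57 without Venus replicate 2, and was at -0.14 without OASIS replicate 1; without an OASIS array, another of its probes is the brightest. Of the partner genes, 13 to 18 passed, 12 to 16 higher and 1 to 3 lower, the 3 without Venus replicate 2 being Mt1, Mt2 and Vegfa. These fits take the lone array of a group to vary as the remaining arrays do.

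Replicate numbers are shared between the groups, but nothing says that they mark a shared culture. Deviations of same-numbered arrays correlated at r = 0.26 across probes. With the replicate number as a block, 3 lysyl oxidase probes passed (Lox adjusted p = 0.00564 and 0.00806, Loxl2 0.0217), with 17 partner genes and 2702 probes in all. For 34 genes, the neighbours and those that the rule or a marker list called, 639 values across the settings were had, of which 596 kept their side and direction, 38 lost the threshold and 5 changed sign.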
